A study of Mus musculus with 6 samples.

Results

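Lysozyme and complement genes of the macrophage were followed in mouse RAW264.7 cells with and without siRNA against Nop16. The set was given as 10 gene symbols: Lyz2 and Lyz1, which encode lysozyme, C1qa, C1qb and C1qc, Cfp, Cfb and C3, and the receptor genes C3ar1 and C5ar1. All 10 were found by symbol among the 55401 genes of the count tables, and 9 passed the filter on low counts that left 14269 genes in all. RAW264.7 is a macrophage-like line that arose in the ascites of a mouse carrying a tumour induced by Abelson murine leukemia virus. All libraries carry the genotype label WT and the treatment label "no", and all came from poly(A)-selected RNA of this 1 line. By their titles, 3 libraries belong to a control siRNA group and 3 to a Nop16 siRNA group. One treatment text is attached to every library and describes transfection of siRNA for Nop16 at 20 nM for 3 days. The sources used here do not say what the control cells received. No label describes the replicates as separate cultures, so the p-values reflect the spread among these 6 libraries alone, which may be technical. The stated purpose was to examine what NOP16 does in macrophages.

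Lysozyme is a secreted enzyme that cuts the peptidoglycan of bacterial cell walls, and the mouse has a pair of neighbouring genes for it: Lyz2, the form of macrophages and other myeloid cells, and Lyz1, the form of Paneth cells in the gut. Complement is a protein cascade of blood and tissue fluid in which C1q starts the classical pathway, factor B and properdin drive the alternative pathway, and both converge on cleavage of C3. The fragments C3a and C5a act on the receptors C3aR and C5aR1, and macrophages make C1q, properdin and C3 themselves.

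Total counts ran from 15601477 to 23061922 per library. Levels are CPM, counts scaled to library size with TMM factors, folds are Nop16 siRNA over control siRNA, and adjusted p-values are from edgeR's quasi-likelihood test with Benjamini-Hochberg adjustment over all genes tested. A gene was called at an adjusted p below 0.05. The SE of a log2 fold change was derived as its absolute value over the square root of the quasi-likelihood F statistic. Nop16 itself measured 17.7, 18.8 and 20.2 CPM in the controls and 3.94, 4.15 and 4.56 CPM after its siRNA, a 4.46-fold fall (log2 fold change -2.16, SE 0.12, edgeR adjusted p = 2.94e-23). Of 10 macrophage markers, all were tested, 5 were higher (Cd68, Csf1r, Mertk, Cd14 and Aif1), 2 were lower (Fcgr1 and Ptprc) and 3 were not called. The shares over all tested genes were 23.0% higher and 22.4% lower, so the count of lower markers is near that share. The summed macrophage marker level was 4335 to 4394 CPM in the controls and 5340 to 5475 CPM after Nop16 siRNA. Neutrophil markers summed to 11.99 to 16.3 CPM and 15.1 to 17.5 CPM, with S100a9, Retnlg and Stfa2l1 at 0 counts in every library. No neutrophil marker was called by edgeR, DESeq2 or limma-voom, and 1 was at an unadjusted edgeR p below 0.05. The 7 matched hepatocyte markers reached at most 0.201 CPM in sum, with Alb, Apoa1, Ttr, Serpina1a and Ahsg at 0 counts. Of 7 dendritic cell markers 2 were tested and Batf3 was lower (log2 fold change -0.78, edgeR adjusted p = 0.0246), a call that DESeq2 did not make. Their sum was 7.16 to 7.96 CPM in the controls and 5.56 to 5.99 CPM after Nop16 siRNA, with Siglech and Ccr7 at 0 counts. Of the B lymphoid, T and NK, and fibroblast markers 1 each was tested (Blnk, Lck and Pdgfra) and none was called by edgeR, at an unadjusted p below 0.05, or by DESeq2 or limma-voom, and no epithelial marker was tested. Whether the change in the macrophage and dendritic cell markers has a part in the results below was not tested, and with bulk RNA a change in RNA per cell and a change in the share of cells of a type cannot be told apart.

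Of the 10 genes, 8 were higher after Nop16 siRNA: Lyz2, Cfp, C5ar1, C3, C3ar1, C1qa, C1qc and C1qb, in order of fold from 2.57 to 1.15. Among all genes tested, 23.0% were called higher and 22.4% lower. The 10 genes and the gene lists were chosen with earlier results of these data known. Counts set beside these shares are therefore descriptions and test no family. None of the 10 was called lower by edgeR, which also held at an unadjusted p below 0.05 and with DESeq2 and limma-voom. Lyz1 was not called and Cfb was too low to test. In each of the 8 genes every Nop16 siRNA library lay above every control library, a pattern that 26.3% of all tested genes had. The pattern is read from the same values as the calls and adds no separate support. The median log2 fold change of the 9 tested genes was 0.34, and that of all tested genes was -0.000196. The scaling itself places the middle of all genes near 0. Without regard to sign, the median log2 fold change of all tested genes was 0.206, about the size of the C1qb change (0.21).

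Lyz2 and Lyz1 lie next to each other on chromosome 10 (GRCm38), both on the minus strand, at chr10:117277331-117282321 and chr10:117287797-117292868. A count can be given to the wrong gene of the pair only where their transcripts are alike, so the transcripts were compared. Their coding sequences have 447 bases each and differ at 22, an identity of 95.1%, and the longest identical coding stretch has 118 bases. Over the whole transcripts, 16.1% of the 50-base stretches of Lyz1 also occur in Lyz2, and none of its 1114 stretches of 150 bases does. The 60 coding bases from 61 to 120, within 1 exon of each gene, hold 9 of the 22 differences and show how the genes can be told apart. They are given 5′ to 3′ from the GENCODE mouse release M21 transcripts, with the differing bases in capitals. The positions are chr10:117282123-117282182 for Lyz2 and chr10:117292719-117292778 for Lyz1.
Lyz2: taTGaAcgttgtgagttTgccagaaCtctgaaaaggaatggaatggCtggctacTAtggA
Lyz1: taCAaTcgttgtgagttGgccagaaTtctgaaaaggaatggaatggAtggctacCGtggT

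Lyz2 showed the largest rise of the 10 genes. It measured 1319, 1041 and 1071 CPM in the controls and 2914, 2759 and 3128 CPM after Nop16 siRNA. All 3 Nop16 siRNA libraries were more than double any control, and control 1 was the highest of the controls. The mean went from 1144 ± 153 CPM (SD, n = 3) to 2934 ± 185 CPM, a 2.57-fold rise (log2 fold change 1.36, SE 0.12, edgeR adjusted p = 0.000979). Lyz2 alone took 0.105% to 0.133% of all counts in the controls and 0.274% to 0.309% after Nop16 siRNA.

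Lyz1 varied between libraries without regard to group. Its counts were 1893, 22 and 127 in controls 1, 2 and 3, and 433, 1043 and 125 in Nop16 siRNA libraries 1, 2 and 3. These are 86.3, 0.946 and 6.38 CPM in the controls and 28.0, 60.1 and 6.79 CPM after Nop16 siRNA. The groups overlapped fully, with both the highest and the lowest library among the controls. The log2 fold change was 0.01 with an SE of 1.58 (edgeR adjusted p = 0.998), so a difference between the groups was not detectable against this spread. The value depended on single libraries, from -0.887 without Nop16 siRNA library 2 to 3.17 without control 1, and was also negative without control 2 (-0.577) and control 3 (-0.46). It was 1.48 with limma-voom and 0.61 with the replicate block, and it turned just below 0 with library size only and with upper quartile factors but not with RLE factors. None of these alternatives called it.

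Fragments that map to several places were counted at each, so a fragment that fits both genes can stand in both counts. Every such fragment is among the Lyz1 counts, so in control 2 at most 22 of the 24194 Lyz2 counts could be shared with Lyz1. Lyz1 took 6.14% of the summed Lyz1 and Lyz2 counts in control 1 (exact binomial 95% interval 5.88% to 6.41%), 0.0908% in control 2 (0.0569% to 0.138%) and 0.592% in control 3 (0.494% to 0.704%). After Nop16 siRNA it took 0.951% (0.864% to 1.04%), 2.13% (2.004% to 2.26%) and 0.217% (0.180% to 0.258%). The intervals, which cover counting error only, do not meet between any of the libraries. The highest share was 67.6 times the lowest among the controls and 9.84 times the lowest after Nop16 siRNA. Mean shares were 2.27% ± 3.36 and 1.10% ± 0.966 (SD, n = 3), with a two-sided exact permutation p = 0.9, where 0.1 is the smallest value that 3 against 3 libraries can give. Without control 1 the difference turned from -1.18 to 0.758 percentage points.

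With both genes summed into 1 feature, the level went from 1175 ± 200 CPM to 2965 ± 159 CPM (SD, n = 3). The sum rose 2.52-fold (log2 fold change 1.34, SE 0.143, edgeR adjusted p = 0.00187).

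The stretches just upstream of both lysozyme genes were read from RefSeq promoter windows (GRCm38.p6, 250 bases before to 50 after each start), which matched 8 of the 10 genes; C1qa and Cfb had no entry. Only bases upstream of every annotated exon are printed. Over the whole windows Lyz1 and Lyz2 were 82.5% identical (249 of 302 aligned columns). The pair is shown because Lyz2 was called and Lyz1 was not, although their difference in response was not tested. Both are on the minus strand and written 5′ to 3′, at chr10:117282322-117282522 for Lyz2 and chr10:117292869-117293118 for Lyz1. The 4 short motifs of factors known from myeloid genes searched for on both strands were the PU.1 core GAGGAA, the C/EBP form TTGCNNAA, the AP-1 form TGANTCA and the IRF form GAAANNGAA. Capitals mark a match.
Lyz2: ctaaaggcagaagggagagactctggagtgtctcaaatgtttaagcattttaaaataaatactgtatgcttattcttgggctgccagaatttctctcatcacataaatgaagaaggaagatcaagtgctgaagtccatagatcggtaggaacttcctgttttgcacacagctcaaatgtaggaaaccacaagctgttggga
Lyz1: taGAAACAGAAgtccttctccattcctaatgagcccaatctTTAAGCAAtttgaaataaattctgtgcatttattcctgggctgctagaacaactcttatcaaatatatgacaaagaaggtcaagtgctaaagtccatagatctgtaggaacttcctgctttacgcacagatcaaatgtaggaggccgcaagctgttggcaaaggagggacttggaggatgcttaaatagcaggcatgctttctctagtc
The Lyz1 window held an IRF and a C/EBP match, which do not overlap each other, and the Lyz2 window held none of the 4 motifs. Of 32851 promoter windows of this length, 28.3% held the PU.1 core, 10.8% the C/EBP form, 7.81% the AP-1 form and 8.56% the IRF form. A match describes letters and not a bound site.

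The 3 C1q genes rose together by a small amount. They lie in 1 cluster on chromosome 4, all on the minus strand, in the order C1qb (chr4:136880129-136886187), C1qc (chr4:136889804-136893065) and C1qa (chr4:136895917-136898803), and each encodes a chain of the C1q molecule that binds antibody complexes, pathogens and dying cells. C1qa measured 59.3, 57.2 and 61.95 CPM in the controls and 76.8, 68.3 and 80.6 CPM after Nop16 siRNA. C1qb measured 164, 158 and 167 CPM against 192, 176 and 196 CPM. C1qc measured 223, 213 and 235 CPM against 269, 259 and 266 CPM. The groups did not overlap for any of the 3 chains, and Nop16 siRNA library 2 was the lowest of its group for each. The folds were 1.27 for C1qa (log2 fold change 0.34, SE 0.0528, edgeR adjusted p = 2.26e-07), 1.15 for C1qb (0.21, SE 0.037, adjusted p = 3.85e-06) and 1.18 for C1qc (0.24, SE 0.0338, adjusted p = 1.43e-08).

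Scaled by exonic length, the chains kept nearly the same proportions in all 6 libraries. C1qb made up 46.4% ± 0.498 of the summed length-scaled level in the controls and 45.2% ± 0.434 after Nop16 siRNA (SD, n = 3). C1qc made up 35.9% ± 0.443 and 35.9% ± 1.16, and C1qa 17.7% ± 0.0774 and 18.9% ± 0.733. The C1qa share was higher in every Nop16 siRNA library than in any control (18.2% to 19.6% against 17.6% to 17.8%), a separation that also held on counts without length scaling. The C1qb share was lower in every Nop16 siRNA library, but on counts without length scaling its groups overlapped. These differences are descriptions and were not tested.

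**Figure D1:**
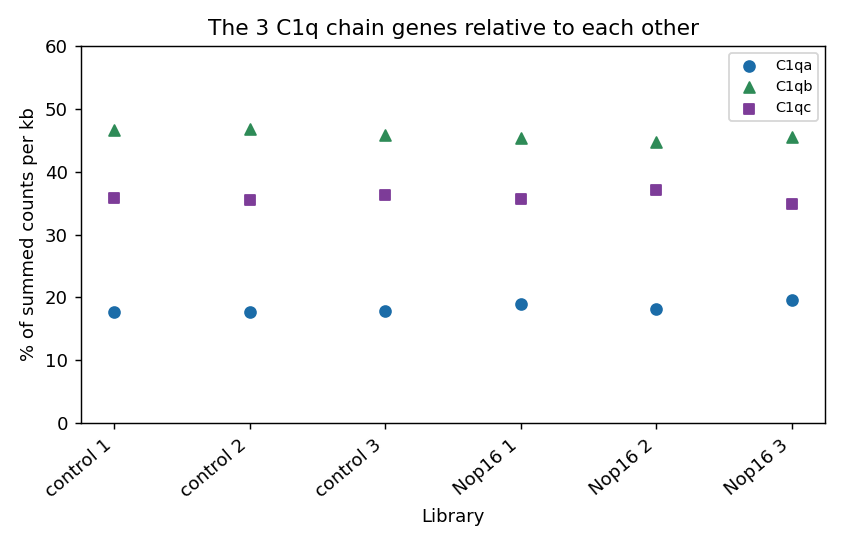
Share of each C1q chain gene in the summed length-scaled level of the 3 chains, in percent, for each of the 6 libraries. C1qb stays at 44.7% to 46.8%, C1qc at 34.8% to 37.1% and C1qa at 17.6% to 19.6%.

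Upstream sequence of C1qb and C1qc is shown for the same motif search, since both belong to 1 cluster and moved alike. Both are on the minus strand and written 5′ to 3′, at chr4:136886201-136886450 for C1qb and chr4:136893066-136893164 for C1qc, with the PU.1 core match in capitals (on the other strand in C1qc).
C1qb: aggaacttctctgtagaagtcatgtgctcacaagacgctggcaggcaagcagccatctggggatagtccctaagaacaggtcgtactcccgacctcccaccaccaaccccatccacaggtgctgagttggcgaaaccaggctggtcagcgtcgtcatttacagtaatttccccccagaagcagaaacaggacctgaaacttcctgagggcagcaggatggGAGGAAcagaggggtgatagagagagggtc
C1qc: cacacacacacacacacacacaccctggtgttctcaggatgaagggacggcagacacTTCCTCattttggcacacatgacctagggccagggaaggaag
Apart from the PU.1 core, at position -30 of C1qb and -193 of C1qc relative to the RefSeq start, neither window held any of the motifs. The RefSeq start of C1qc lies inside its annotated gene. Only 99 bases of its window are upstream of every annotated exon, against the 250 printed for C1qb. The 2 positions therefore do not compare distances from the gene ends. The 2 whole windows were 45.3% identical (156 of 344 aligned columns), against the 82.5% of the lysozyme pair. Since the C1qb and C1qc windows are placed differently against their genes, the 2 percentages are not on the same footing. Among the other windows, that of C3 held a C/EBP match at -45, that of C3ar1 an AP-1 match at -22, that of C5ar1 an IRF match at -66 and that of Cfp the PU.1 core at 6 and 22. The C5ar1 and Cfp matches are not in the part of the window upstream of every annotated exon.

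Cfp encodes properdin, the plasma protein that stabilises the C3 convertase of the alternative pathway, and showed the largest rise among the complement genes of the set. It lies at chrX:20925454-20931555. Its level was 326.5, 335 and 337 CPM in the controls and 596, 563 and 584 CPM after Nop16 siRNA. The groups were far apart and the libraries within each group were close. The mean went from 333 ± 5.71 CPM to 581 ± 16.9 CPM (SD, n = 3), a 1.74-fold rise (log2 fold change 0.80, SE 0.0297, edgeR adjusted p = 1.04e-31).

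C3, the central component whose cleavage opsonises targets, lies at chr17:57203970-57228136. It measured 375, 373 and 342 CPM in the controls and 471, 464 and 511 CPM after Nop16 siRNA. No control reached the lowest Nop16 siRNA library. The 1.33-fold rise had a log2 fold change of 0.41 (SE 0.0369, edgeR adjusted p = 3.69e-10), from 364 ± 18.7 CPM to 482 ± 25.8 CPM (SD, n = 3).

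Cfb, which encodes factor B, the protease of the alternative pathway convertase, was at or below 2 counts in every library. Its counts were 1, 2 and 0 in the controls and 1, 2 and 1 after Nop16 siRNA. All are under the floor of 3 counts per library, 0.13 to 0.192 CPM at these depths, so no fold is given. Gm20547, an overlapping gene model that shares 79.5% of the exonic length of Cfb, had 1 to 4 counts.

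The receptor genes C5ar1 and C3ar1 both rose. By the wider of the 2 within-group ranges on the log2(CPM + 0.5) scale they were the narrowest of the 9 tested genes, at 0.0309 for C5ar1 and 0.078 for C3ar1, with Cfp next at 0.0832, although Cfp was narrower than C3ar1 within the controls (0.0473 against 0.078). C5ar1, at chr7:16246743-16259540, encodes the receptor that draws and activates phagocytes in response to C5a. It measured 558.5, 570 and 558 CPM in the controls and 781, 772 and 787 CPM after Nop16 siRNA, a 1.39-fold rise (log2 fold change 0.47, SE 0.0278, edgeR adjusted p = 3.09e-22). C3ar1, at chr6:122847138-122856161, encodes the receptor for C3a. It measured 787, 826 and 831 CPM in the controls and 1019, 1036 and 1017 CPM after Nop16 siRNA, a 1.26-fold rise (log2 fold change 0.33, SE 0.0278, edgeR adjusted p = 9.43e-16). For both genes every Nop16 siRNA library lay above every control.

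**Figure D2:**
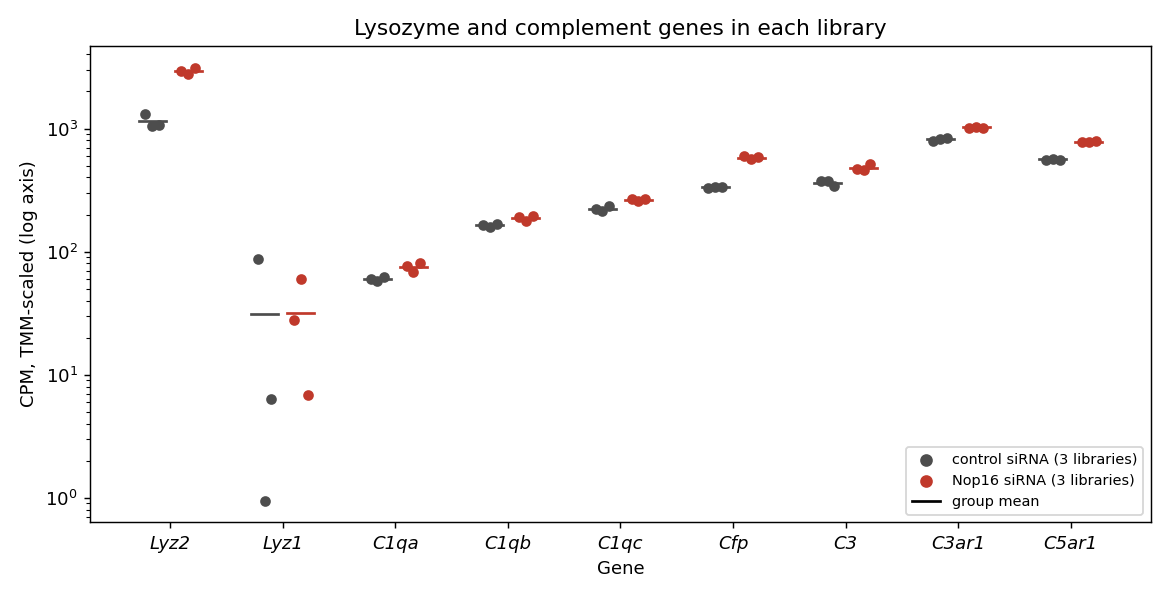
CPM of each lysozyme and complement gene in the 6 libraries (points, log axis), controls beside Nop16 siRNA. The groups do not overlap for Lyz2, the C1q genes, Cfp, C3, C3ar1 and C5ar1, whereas Lyz1 is spread from 0.946 to 86.3 CPM and Cfb lies under the floor of 3 counts.

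Levels can be compared between genes only per length, here as CPM per kb of exonic length. In the controls Lyz2 came first at 869 ± 116 CPM per kb (SD, n = 3), followed by C5ar1 at 219 ± 2.64, Cfp at 192 ± 3.29, C3ar1 at 189 ± 5.58 and C1qb at 150 ± 4.28. C1qc at 116 ± 5.81, C3 at 70.7 ± 3.64, C1qa at 57.2 ± 2.30 and Lyz1 at 24.7 ± 37.8 CPM per kb came next, and Cfb was last. The libraries of neighbours in this order overlapped only for Cfp with C3ar1 and for C1qa with Lyz1. After Nop16 siRNA, Cfp moved up to the second place at 335 ± 9.73 CPM per kb, above C5ar1 at 303 ± 3.06, and no neighbours overlapped. Lyz2 then stood at 2229 ± 141 CPM per kb and C3ar1 at 238 ± 2.45, and the order of the others was the same.

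The other genes of the complement system were read from a list of 50, of which 23 were tested, 11 were higher, 3 lower and 9 not called, with a median log2 fold change of 0.17. In the same list 17 genes had 0 counts in every library. Set beside the 23.0% of all tested genes called higher, the list held 11 of 23, and beside the 22.4% called lower it held 3 of 23. The count called lower fell to 1 with DESeq2, and to 1 without control 2, control 3, Nop16 siRNA library 2 or Nop16 siRNA library 3.

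In the classical and lectin pathways, 10 of 16 genes were tested. Fcna, which encodes the recognition protein ficolin A, went from 54.6 ± 4.68 to 73.4 ± 0.823 CPM (SD, n = 3), log2 fold change 0.42 (edgeR adjusted p = 7.19e-10). C1ra, a gene for the C1r protease that is activated within the C1 complex, went from 58.5 ± 1.14 to 68.2 ± 0.996 CPM, log2 fold change 0.22 (edgeR adjusted p = 0.000177). Its near copy C1rb was called at 0.26 (edgeR adjusted p = 0.0107) with overlapping groups, and lost the call without control 1 (adjusted p = 0.163), Nop16 siRNA library 1 (0.0617) or library 2 (0.0557). Since multi-mapped fragments were counted, the counts of such near copies are uncertain. C4b, a gene for C4, was low and fell from 2.68 ± 0.105 to 1.79 ± 0.095 CPM, log2 fold change -0.58 (edgeR adjusted p = 0.0478). That call was lost in 10 of the 14 alternatives that tested C4b, with adjusted p from 0.0396 to 0.12 over the 14, among them each of the 6 fits that leave out 1 library. C1s1, C1s2, C1rl, C4a, Masp1 and Masp2 were tested and not called, at means of 1.08 to 11.8 CPM.

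Of the alternative pathway and terminal genes, 6 of 8 had 0 counts in all libraries: Cfd, Hc, C6, C7, C8a and C8b. Hc encodes C5, the precursor of the C5a that binds the C5ar1 product. A count of 0 allows up to 3 counts per library, or 0.13 to 0.192 CPM. C8g was the only one tested, at 0.605 ± 0.305 and 1.10 ± 0.21 CPM (edgeR adjusted p = 0.0735), and it passed the threshold without control 1 (adjusted p = 0.03).

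Regulators moved in both directions. Clu, which encodes clusterin, an inhibitor of terminal complex assembly, rose from 63.3 ± 1.88 to 101.4 ± 2.15 CPM (log2 fold change 0.68, edgeR adjusted p = 1.08e-19). Cr1l, the gene of the rodent membrane inhibitor Crry, rose from 61.7 ± 2.64 to 71.0 ± 1.44 CPM (log2 fold change 0.20, edgeR adjusted p = 0.000492). C1qbp, named for binding C1q and known mainly as a mitochondrial protein, fell from 60.3 ± 0.601 to 54.9 ± 4.69 CPM (log2 fold change -0.14, edgeR adjusted p = 0.0361). Its call was lost in 6 of 15 alternatives, 5 of which leave out 1 library: adjusted p was 0.0885 with DESeq2, 0.092, 0.061 and 0.0715 without controls 1, 2 and 3, and 0.351 and 0.0514 without Nop16 siRNA libraries 2 and 3. Cd46 was not called at 1.59 ± 0.464 and 0.998 ± 0.297 CPM (edgeR adjusted p = 0.108), and passed without control 1 (0.0499).

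Among receptor genes outside the set, 7 of 9 were tested, of which 6 were higher, beside 23.0% of all tested genes. None was lower, beside 22.4% of all tested genes, a count of 0 that also held at an unadjusted p below 0.05 with edgeR and with DESeq2 and limma-voom. Itgax, the alpha chain of complement receptor 4, went from 8.80, 8.78 and 6.73 CPM to 33.2, 33.5 and 28.2 CPM, a 3.88-fold rise (log2 fold change 1.96, SE 0.0967, edgeR adjusted p = 4.17e-25). Cd93, once described as a C1q receptor, went from 7.61 ± 0.6 to 21.5 ± 3.18 CPM, a 2.82-fold rise. Itgb2, the beta chain shared by complement receptors 3 and 4, went from 509 ± 15.9 to 739 ± 3.12 CPM, log2 fold change 0.54. Itgam, the alpha chain of complement receptor 3, went from 760 ± 17.8 to 1075 ± 2.73 CPM, log2 fold change 0.50, but shares 68.7% of its exonic length with the model Gm49368, so its count is uncertain. Calr and Lrp1, which together form a receptor complex for C1q-coated cells, had log2 fold changes of 0.17 and 0.16. The Lrp1 call was lost without Nop16 siRNA library 1 (edgeR adjusted p = 0.0677) or library 2 (0.0744). C5ar2, the second C5a receptor, was not called at 4.31 ± 0.817 and 4.16 ± 0.785 CPM, and Cr2 and Vsig4 had 0 counts in every library.

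Genes whose 6-library profile was most like that of Lyz2, C1qb and C3 were sought among the 9935 protein-coding genes that averaged 5 CPM or more. Likeness was the root mean square difference of log2(CPM + 0.5), centred on the controls, over the 6 libraries. With this centring, genes of a like fold change come out near, so likeness is not a measure of shared variation among replicates. For Lyz2 the nearest were Traf1 (0.0948), Spp1 (0.0974) and Clec4e (0.103), of which Spp1, the gene of osteopontin, went from 2514 ± 106 to 6792 ± 168 CPM. For C1qb they were Fam53a (0.0183), Stxbp2 (0.0211) and Rdh5 (0.0224), and for C3 they were Dctn5 (0.0246), Rnf11 (0.0274) and Nucb2 (0.0335). Of these 9, Rdh5 was not called (edgeR adjusted p = 0.05001). No C1q or other complement gene was among the 9, which are only the 3 nearest for each gene. The places of the complement genes further down were not read out.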

How the data were processed

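Per gene, the authors deposited unnormalized fragment counts made with featureCounts 2.0.1, per the file headers, in paired mode with strand setting 2 and a minimum overlap of 10 bases. Multi-mapped fragments and fragments over several genes were counted at each, per the file headers, so totals are not distinct fragments and counts of near copies and overlapping genes are uncertain. Gene models were Ensembl release 101 on GRCm38, per the file headers, with a filter the headers name but do not describe. HISAT2 2.2.1 and Trim Galore are named in the submitters' processing notes. Libraries came from 1 µg of RNA with a directional kit, per the labels' protocols. No pair of libraries agreed within sampling noise (chi-square per degree of freedom 2.52 to 3.12 within groups and 45.5 to 52.5 between).

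Counts were compared with edgeR 4.0.16 (R 4.3.3): TMM scaling, filterByExpr, robust quasi-likelihood test, Benjamini-Hochberg adjustment over 14269 genes, threshold 0.05. The steps were also run on simulated data drawn with a common dispersion for all genes. Such data do not mimic a gene-specific spread like that of Lyz1, and the outcome is not given here. Alternatives were library size, RLE and upper quartile scaling, DESeq2 1.42.0, limma-voom (limma 3.58.1), no filter, at least 5 CPM in 3 libraries, no robust fit, a replicate block and leaving out each library. Promoters were RefSeq windows of GRCm38.p6, and transcripts were GENCODE mouse release M21 on GRCm38. All 10 genes are named, with the tested complement genes (some items are not reported here) and, for Lyz2, C1qb and C3, the 3 nearest genes by the stated measure of likeness. The members and lists were chosen with earlier results of these data known.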

Additional observations from a re-analysis of the deposited data

How the results depend on the processing

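The calls of the 8 higher genes, and the absence of a lower one, held in all 15 alternatives. Lyz2 had log2 fold changes of 1.30 to 1.47, with the largest adjusted p, 0.0125, under the replicate block. Calls over all genes ran from 5681 to 6481. Among the other complement genes, 1 in place of 3 was called lower with DESeq2 and with at least 5 CPM in 3 libraries, and 1 to 2 when a library was left out; fewer genes tested explains the second, and the cause was not tested for the others. The log2 fold change of Lyz1 was -0.0124 with library size only and -0.000197 with upper quartile factors, and -0.887 to 3.17 when a library was left out. Leaving out a library gave -0.35 to 0.265 for C1s1 and -0.218 to 0.0416 for C5ar2, neither called. The difference in Lyz1 share ran from -2.27 to 0.758 percentage points. The replicate numbers do not pair the libraries by the labels, and same-numbered deviations correlated at 0.0175, -0.0198 and -0.0223. With the replicate block 8 of the 10 genes were still called higher, the summed Lyz1 and Lyz2 feature had a log2 fold change of 1.35 (edgeR adjusted p = 0.0188), and the call of C4b was lost (0.056). Depth limits Cfb and the genes at 0 counts, for which a change under the floor was not detectable.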

Other observations

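The lysozyme family and other bacteriolytic or granule genes made up a list of 22, of which 3 were tested and all 3 rose, beside 23.0% of all tested genes. Mpeg1, the gene of the pore-forming protein perforin-2 of macrophages, went from 1132 ± 14.6 to 1970 ± 19.9 CPM (SD, n = 3), log2 fold change 0.80 (edgeR adjusted p = 3.29e-34), a size like that of Cfp. Slpi, which encodes a secreted inhibitor of leukocyte proteases, went from 6.98 ± 0.563 to 16.2 ± 1.98 CPM, log2 fold change 1.22 (edgeR adjusted p = 9.96e-14). Lyzl4, a lysozyme-like gene known from the testis, was low, at 1.53 ± 0.295 and 2.80 ± 0.541 CPM, log2 fold change 0.87 (edgeR adjusted p = 0.00482). DESeq2 and limma-voom also called all 3 higher, so none could be called lower. The list also held 13 genes at 0 counts in every library, among them the neutrophil granule genes Ltf, Ngp and Ctsg.

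After the values of Lyz1 had been seen, all 10791 genes averaging 5 CPM or more were ranked by their widest range within a group, on the log2(CPM + 0.5) scale. Lyz1 ranked 1, with a range of 5.91 in the controls and 3.05 after Nop16 siRNA, against a median of 0.166 over these genes. Lyz2 ranked 1260 with 0.34. Only 3 of the 10791 genes spanned more than 4-fold within a group: Lyz1 and the pseudogenes Rpl27-ps2 and Gm9574. Among protein-coding genes the next were Fbxl18 and H2-Q7, both highest in control 1, as Lyz1 was. Acat3 and Pnp2, which followed, did not share this. Acat3 was highest in Nop16 siRNA library 3 (16.9 CPM) and Pnp2 was lowest in control 1 (3.42 CPM). Fbxl18 measured 57.7, 21.6 and 17.2 CPM in the controls and 14.8, 34.0 and 36.4 CPM after Nop16 siRNA. H2-Q7 measured 143, 51.4 and 50.04 CPM in the controls and 33.1, 37.4 and 34.8 CPM after Nop16 siRNA. C5ar1, at the other end, ranked 10731 with a range of 0.0309.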
